A study of Mus musculus with 9 samples.

Results

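Myeloid C-type lectin receptors are surface proteins through which phagocytes and dendritic cells recognise sugars, glycolipids and ligands released from damaged cells. The 9 receptor genes described here, Clec4e, Clec4d, Clec4n, Clec7a, Clec5a, Clec12a, Clec4a2, Clec10a and Mrc1, were chosen by name for this function, by a rule that uses no measured value but with earlier results of these data known, from the 54347 genes of the count table. They were measured by RNA-seq of polyadenylated RNA in 3 mouse cell lines with 3 libraries each. The progenitor lines Hox-WT and Hox-URE were immortalized from c-Kit+ bone marrow with an estradiol-dependent Hoxb8 fusion, from a wild-type and a UREd/d mouse respectively, and URE-AML (the line named B22) grew from the blasts of an acute myeloid leukemia. Hox-URE and URE-AML both carry the UREd/d genotype, the deletion of an upstream regulatory element (URE) that acts as enhancer for Spi1, which encodes the transcription factor PU.1. All 3 lines were kept in IMDM with 20% FCS, IL-3, IL-6 and SCF at 10 ng/ml each and estradiol, labelled as 1 µM. A higher estradiol dose stands in the published methods for the same lines. The sources used here differ on whether the leukemic mouse was a UREd/d animal or one carrying the Hox-URE cells, and they give no age for the mice from which the lines were made. With 1 line for each genotype and stage, these and the line itself cannot be told apart, and nothing states that a line's 3 libraries were grown as separate cultures, so the p-values measure only the spread between these libraries.

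The library totals ran from 20331064 to 28588718 counts, so that 3 counts in a library, used here as the limit of detection, were worth 0.104 to 0.153 CPM (the count relative to the library total times its TMM factor). Spi1 stood at 102 ± 6.79 CPM in Hox-WT (SD, n = 3, as for all levels that follow), at 2 counts over the 3 Hox-URE libraries, and at 4.79 ± 2.02 CPM in URE-AML, so the libraries followed their labels. As for the labelled cell types, Kit was present in all 3 lines, whereas Cd34 and Flt3, which mark progenitors, were at 1 and 0 counts over the URE-AML libraries. The summed CPM of 13 neutrophil markers was 5620 to 9040 in Hox-WT cells, 2630 to 4010 in Hox-URE cells and 11300 to 26000 in URE-AML cells. Ctsg, with 3320 ± 737 CPM, made up most of the sum in Hox-URE cells. There 9 of the 12 tested markers were called lower than in wild-type cells, beside 15.9% of all tested genes. Ly6g, with 0 counts in Hox-WT, could not come out lower. The summed CPM of 9 mast cell and basophil markers was 483 to 838, 1610 to 5890 and 31.4 to 62.8, respectively. In these bulk libraries, fewer cells expressing a receptor and less RNA per cell cannot be told apart.

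The receptors fall into groups by how they signal. Clec4e (Mincle), Clec4d (MCL) and Clec4n (Dectin-2) carry no activating motif of their own and pair with the Fc receptor gamma chain, the product of Fcer1g, whose ITAM recruits the kinase SYK. Clec5a (MDL-1) pairs with DAP12 and DAP10, the products of Tyrobp and Hcst, and Clec7a (Dectin-1) has an ITAM-like motif in its own tail. SYK then passes the signal through PLCγ2 and PKCδ to CARD9, BCL10 and MALT1, and from there to NF-κB. Clec12a (MICL) and Clec4a2 (DCIR) carry an inhibitory ITIM, which recruits the phosphatases SHP-1, SHP-2 and SHIP-1. Clec10a (MGL1) and Mrc1 (the mannose receptor) are endocytic receptors of macrophages and dendritic cells.

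In the GRCm38 annotation (GENCODE M21), 7 of the 9 genes lie on chromosome 6. Clec4a2 (chr6:123106428-123143999), Clec4n (chr6:123229843-123247021), Clec4d (chr6:123262111-123275265) and Clec4e (chr6:123281789-123289870) lie in this order. Between one receptor and the next are 85.8 kb, 15.1 kb and 6.5 kb, with Clec4b2 and other genes between Clec4a2 and Clec4n. Clec4e is the only gene of these 4 on the minus strand. Clec12a (chr6:129342691-129365303) lies 6.05 Mb beyond Clec4e. Clec7a (chr6:129461591-129472779) comes 96.3 kb after Clec12a, with Clec12b, Clec1b, Clec9a and Clec1a between them, and Clec5a (chr6:40574894-40585821) lies apart. Clec10a is at chr11:70156197-70170834 and Mrc1 at chr2:14229392-14332057. Clec7a is annotated as a polymorphic pseudogene and the other 8 genes as protein coding, and no exon of a receptor overlapped an exon of another annotated gene.

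RefSeq promoters (GRCm38.p6) were at hand for 7 of the 9 genes, all but Clec10a and Clec4n. Since the lines differ in Spi1, they were searched on both strands, from 250 bases before to 50 bases after the start site, for the letters GAGGAA, the core that PU.1 binds. GAGGAA was found in 6 of the 7, against 28.3% of all 32851 promoters of the same length. The 6 were Clec12a, Clec4d, Clec4e, Clec5a, Clec7a and Mrc1. TGTGGT, the core bound by RUNX factors, was found in Clec12a, Clec4e and Clec5a, 3 of the 7 against 16.8% of all promoters. The C/EBP letters TTGCNNAA were found in Clec12a and Clec4e (10.8% of all promoters), and the AP-1 letters TGANTCA in Clec12a and Clec4a2 (7.81%). A match is a description of the letters and not a measured binding site. The 250 bases before the start site are shown for the 3 genes holding both GAGGAA and TGTGGT, whose levels differed between the lines in 3 different ways, and for Clec4a2, in which neither was found, with the letters of these 2 cores on either strand in capitals. No capital stretch of one core overlapped one of the other. The stretches of Clec12a and Clec4a2 lie inside the gene spans given above and not before the annotated gene starts. What was found or not found in them holds for these RefSeq start sites only.
Clec12a, chr6:129349994-129350243, plus strand: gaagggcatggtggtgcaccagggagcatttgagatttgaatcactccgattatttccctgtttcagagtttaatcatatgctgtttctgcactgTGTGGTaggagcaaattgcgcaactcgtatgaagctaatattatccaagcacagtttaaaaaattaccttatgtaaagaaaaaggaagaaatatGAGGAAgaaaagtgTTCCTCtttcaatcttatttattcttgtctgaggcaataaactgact
Clec4e, chr6:123289872-123290121, minus strand: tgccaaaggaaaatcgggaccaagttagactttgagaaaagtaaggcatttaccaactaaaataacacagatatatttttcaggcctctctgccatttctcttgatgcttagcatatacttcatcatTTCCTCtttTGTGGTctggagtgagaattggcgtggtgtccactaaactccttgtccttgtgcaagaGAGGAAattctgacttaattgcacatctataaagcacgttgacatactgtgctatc
Clec5a, chr6:40585806-40586055, minus strand: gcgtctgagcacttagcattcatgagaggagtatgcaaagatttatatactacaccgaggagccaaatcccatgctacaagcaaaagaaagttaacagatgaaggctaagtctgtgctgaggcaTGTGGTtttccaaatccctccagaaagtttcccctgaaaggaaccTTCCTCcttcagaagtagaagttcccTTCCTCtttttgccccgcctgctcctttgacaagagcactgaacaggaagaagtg
Clec4a2, chr6:123122440-123122689, plus strand: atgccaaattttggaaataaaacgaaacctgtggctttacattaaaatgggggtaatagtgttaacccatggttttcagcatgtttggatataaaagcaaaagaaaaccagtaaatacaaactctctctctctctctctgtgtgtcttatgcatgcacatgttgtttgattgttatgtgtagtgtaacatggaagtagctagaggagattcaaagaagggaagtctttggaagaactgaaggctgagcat

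The GAGGAA letters closest to the start site began 47 bases before it in Clec12a, 56 in Clec4e and 55 in Clec5a, while the TGTGGT letters began 155, 114 and 126 bases before it. In Clec4e a further GAGGAA match began 123 bases before the start, so that TGTGGT lay between 2 matches there and beyond both matches in Clec12a and Clec5a.

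Of the 9 receptors, 6 passed the filter on low counts, and Clec7a, Clec4n and Mrc1 did not. A gene was called where edgeR's quasi-likelihood test gave a Benjamini-Hochberg adjusted p below 0.05 over all 13082 tested genes and the fold change was over 1.5. Between Hox-URE and Hox-WT, Clec4e and Clec4d were called higher and Clec12a, Clec10a and Clec4a2 lower in Hox-URE, with Clec5a not called. Thus 2 of 6 were higher and 3 of 6 lower, where 21.3% of all tested genes were higher and 15.9% lower. Between URE-AML and Hox-WT, Clec5a was called higher and Clec4e, Clec12a, Clec10a and Clec4a2 lower in URE-AML, with Clec4d not called. This made 1 of 6 higher and 4 of 6 lower, beside 23.0% and 20.2% of all tested genes. Between URE-AML and Hox-URE, Clec5a and Clec12a were higher and Clec4e and Clec4d lower in URE-AML, 2 of 6 in each direction, beside 20.3% and 22.4%. Clec10a and Clec4a2 passed the filter through Hox-WT alone, so against it they could only come out lower. Over the other 4 the median log2 fold change was 0.43 for Hox-URE and -0.27 for URE-AML relative to Hox-WT and -0.21 for URE-AML relative to Hox-URE, and that of all tested genes lay between 0 and 0.002. Each line enters 2 of these comparisons, so their results are not independent.

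**Figure D1:**
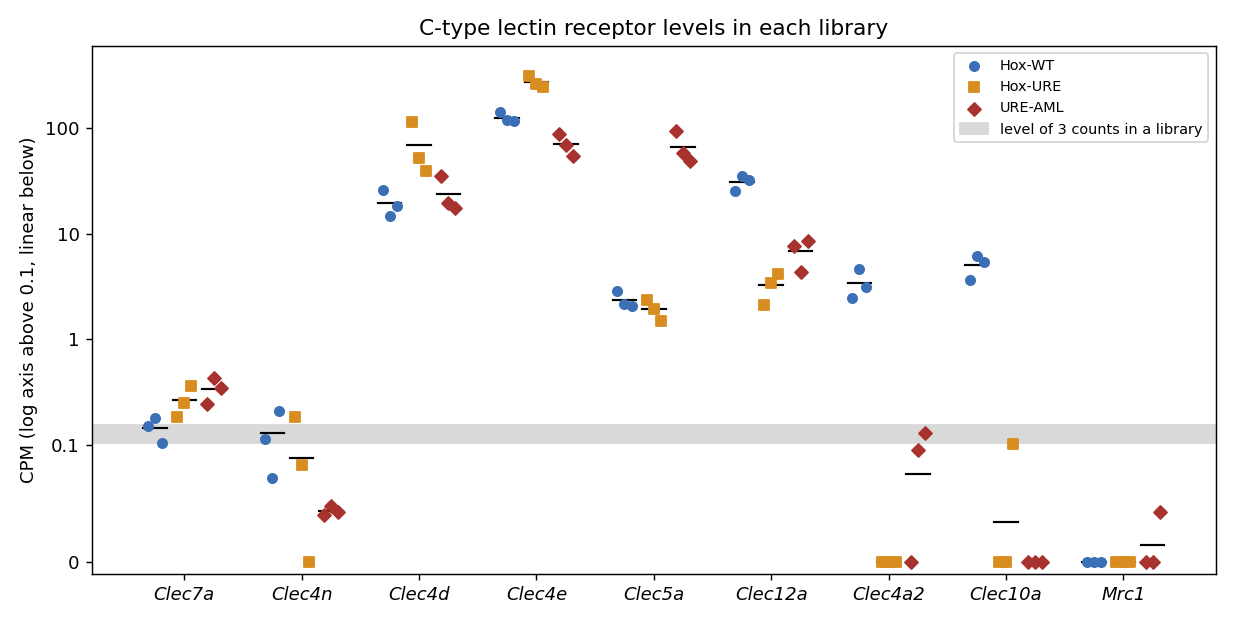
CPM of the 9 receptor genes in each library (symbols, by line) with the mean of each line (bars), on an axis that is logarithmic above 0.1 and linear below. Clec4e and Clec4d were highest in Hox-URE, Clec5a in URE-AML and Clec12a, Clec4a2 and Clec10a in Hox-WT, while Clec7a, Clec4n and Mrc1 lay near or under the level of 3 counts (grey band).

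Clec4e, the Mincle receptor for mycobacterial and damage-associated glycolipids, had 142, 118 and 116 CPM in the Hox-WT libraries, 311, 261 and 245 in Hox-URE, and 88.7, 69.3 and 53.8 in URE-AML cells. The lines were in the order Hox-URE, Hox-WT, URE-AML, and no library of one line overlapped another line. The log2 fold change was 1.12 ± 0.17 (SE) in Hox-URE against Hox-WT (edgeR adjusted p = 0.000394), -0.83 ± 0.17 for URE-AML relative to Hox-WT (adjusted p = 0.00214) and -1.95 ± 0.18 in URE-AML against Hox-URE (adjusted p = 7.74e-06). The 1.77-fold difference between URE-AML and Hox-WT was lost when tested against a fold of 1.5 (edgeR's glmTreat, adjusted p = 0.0866).

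Clec4d, the partner of Mincle in surface complexes, had 26, 14.7 and 18.1 CPM in Hox-WT cells, 114, 51.6 and 39.6 in Hox-URE, and 34.9, 19.4 and 17.4 in URE-AML cells. All Hox-URE libraries were above those of both other lines, which overlapped each other. The gene rose 3.51-fold in Hox-URE against Hox-WT (log2 1.81 ± 0.41, edgeR adjusted p = 0.00407), and was 2.87-fold lower in the URE-AML line than in Hox-URE cells (-1.52 ± 0.41, adjusted p = 0.00879). The size of this difference rested in part on Hox-URE library 1: without it the fold against Hox-WT was 2.32 (adjusted p = 0.00752) and that between URE-AML and Hox-URE was 1.91 (adjusted p = 0.0241). URE-AML against Hox-WT gave 0.29 ± 0.41 (95% interval -0.615 to 1.195, adjusted p = 0.569), an interval that includes increases above 2-fold.

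Clec4d and Clec4e, convergent neighbours with 6.5 kb between them, were thus both highest in Hox-URE. Clec4n, the third receptor of this group and the next gene beyond Clec4d, was counted 3, 2 and 6 times in Hox-WT, 5, 2 and 0 times in Hox-URE and once in each URE-AML library. These counts lay around the limit of 3 per library, and a difference between lines was not detectable at this depth. In Clec4d, Clec4e and Clec5a alike, library 1 was the highest of each line, a pattern shown by 9.84% of all tested genes. The mast cell and basophil markers were also highest in Hox-URE, but within that line their summed CPM was 1610, 3520 and 5890 in libraries 1 to 3 where Clec4d had 114, 51.6 and 39.6, and their part in the differences of Clec4d and Clec4e was not tested.

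Clec5a, the DAP12-coupled receptor of neutrophils and monocytes that binds flavivirus glycans, was low in both progenitor lines and high in the leukemic one. It had 2.85, 2.14 and 2.04 CPM in Hox-WT cells, 2.37, 1.95 and 1.48 in Hox-URE, and 93.8, 57.9 and 48.7 in URE-AML cells. The URE-AML libraries were far above all others, while those of the progenitor lines overlapped. The fold was 28.5 against Hox-WT (log2 4.83 ± 0.29, edgeR adjusted p = 2.83e-07) and 34.1 against Hox-URE (5.09 ± 0.29, adjusted p = 2.73e-07). Hox-URE against Hox-WT gave -0.26 ± 0.31 (95% interval -0.94 to 0.42, adjusted p = 0.503). Most neutrophil markers were also higher in URE-AML. Of 12 tested, 10 were called higher against Hox-WT and 10 against Hox-URE, beside 23.0% and 20.3% of all tested genes. Mpo went the other way against Hox-WT, with 192 CPM in URE-AML and 5040 in Hox-WT (log2 -4.71, edgeR adjusted p = 1.95e-05). Ly6g and Camp passed the filter almost wholly through URE-AML and could only come out higher. S100a8, S100a9, Ltf, Ngp and Mmp8, with at most 7 counts each over the Hox-URE libraries, could not come out lower against that line. Within URE-AML the summed CPM of the neutrophil markers was 11300, 17600 and 26000 in libraries 1 to 3, whereas Clec5a was highest in library 1. The part of these markers in the Clec5a difference was not tested.

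Clec7a, the beta-glucan receptor, was counted 4, 5 and 3 times in Hox-WT, 5, 6 and 7 times in Hox-URE and 6, 9 and 8 times in URE-AML. The ratio of the summed counts, corrected for library size, was 2.32 for URE-AML over Hox-WT (exact 95% interval 1.11 to 5.11, counting error only). With the filter on low counts removed, the edgeR adjusted p of this difference was 0.221, so Clec7a is given as present at a few counts per library in all 3 lines and not as different between them.

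Of the inhibitory receptors, Clec12a went the other way from Clec4e and Clec4d in Hox-URE. Clec4a2 passed the filter through Hox-WT alone and could only come out lower. Clec12a, which recognises uric acid crystals and dampens neutrophil activation, had 25.6, 34.8 and 32.3 CPM in Hox-WT cells, 2.11, 3.44 and 4.14 in Hox-URE, and 7.59, 4.37 and 8.54 in URE-AML cells. Every Hox-WT library was above every library with the UREd/d genotype, and all URE-AML libraries were above all Hox-URE libraries. The gene fell by 3.27 ± 0.30 on the log2 scale in Hox-URE (9.66-fold, edgeR adjusted p = 1e-05) and by 2.17 ± 0.28 in URE-AML (4.51-fold, adjusted p = 7.68e-05). It was 2.14-fold higher in the URE-AML line than in Hox-URE cells (1.10 ± 0.29, adjusted p = 0.00837), a call that glmTreat did not make (adjusted p = 0.0556).

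Clec4a2, the DCIR receptor, was counted 66, 128 and 90 times in the Hox-WT libraries (3.38 ± 1.07 CPM), in none of the Hox-URE libraries, and 0, 2 and 3 times in URE-AML. It was above the limit of 3 counts in Hox-WT only. In Hox-URE cells it was lower by at least 26.3-fold, a bound from 3 counts per library (edgeR adjusted p = 9.13e-05), and the ratio of Hox-WT to URE-AML was 46.9 (exact 95% interval 19.9 to 146, adjusted p = 0.000161). That ratio was 30.1 without URE-AML library 1 and 77.8 without library 3. URE-AML and Hox-URE were both at or under the limit and gave no fold (adjusted p = 0.0597). Of the 31-base words of its transcripts, 10.3% occur in transcripts of other genes, mostly Clec4a4, so the division of reads among these genes is less certain than for Clec4d, Clec4e and Clec5a, which shared no such word.

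Of the endocytic receptors, Clec10a, which binds galactose-type sugars, was counted 98, 172 and 155 times in Hox-WT (5.06 ± 1.26 CPM), 0, 0 and 2 times in Hox-URE and in none of the URE-AML libraries. The ratio of Hox-WT to Hox-URE was 181 (exact 95% interval 49.8 to 1500, edgeR adjusted p = 7.87e-05), and URE-AML cells were at least 38.7-fold lower (adjusted p = 3.91e-05). Both Hox-URE counts fell in library 3, without which the line was at 0 and at least 43.3-fold lower, and without library 1 the ratio was 111. Here 14.8% of the 31-base words are shared with other genes, most with Mgl2, the paralogue that begins 25.9 kb before it. Mgl2 itself had 17.3, 31.1 and 28.4 CPM in Hox-WT and was at 0 in all 6 libraries of the other lines, so Clec10a and Mgl2 were both present in Hox-WT and at or under the limit elsewhere. Mrc1 was counted once, in a URE-AML library, and in no other library. The macrophage genes C1qa, C1qb and Mertk were at 0 in all 9 libraries. Adgre1, another macrophage gene, had 274 ± 5.20 CPM in wild-type cells. It was 204-fold lower for Hox-URE and 72.2-fold lower for URE-AML (edgeR adjusted p = 1.17e-05 and 1.73e-05). Of 13 monocyte and macrophage markers, 8 were tested. Relative to Hox-WT, 1 was called higher and 6 lower for Hox-URE, beside 21.3% and 15.9% of all tested genes. For URE-AML, 1 was higher and 4 were lower, beside 23.0% and 20.2%. Csf1r and Ly86, among the lower of each line, passed the filter through Hox-WT alone and could only come out lower. The summed CPM of the 13 markers was 325 to 383 for Hox-WT, with Adgre1 making up most of it. The sum was 842 to 946 for Hox-URE, where Ccr2 alone had 885 ± 49.7, and 373 to 1040 for URE-AML, mostly Ly6c2. That of 10 dendritic cell markers was 36.7 to 40.5, 56.0 to 75.6 and 25.8 to 29.7 in the same order, carried by Bst2 and in Hox-URE also by H2-Ab1, with no other of them over 1 CPM, and the part of such cells in the Clec10a and Clec4a2 differences was not tested.

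**Figure D2:**
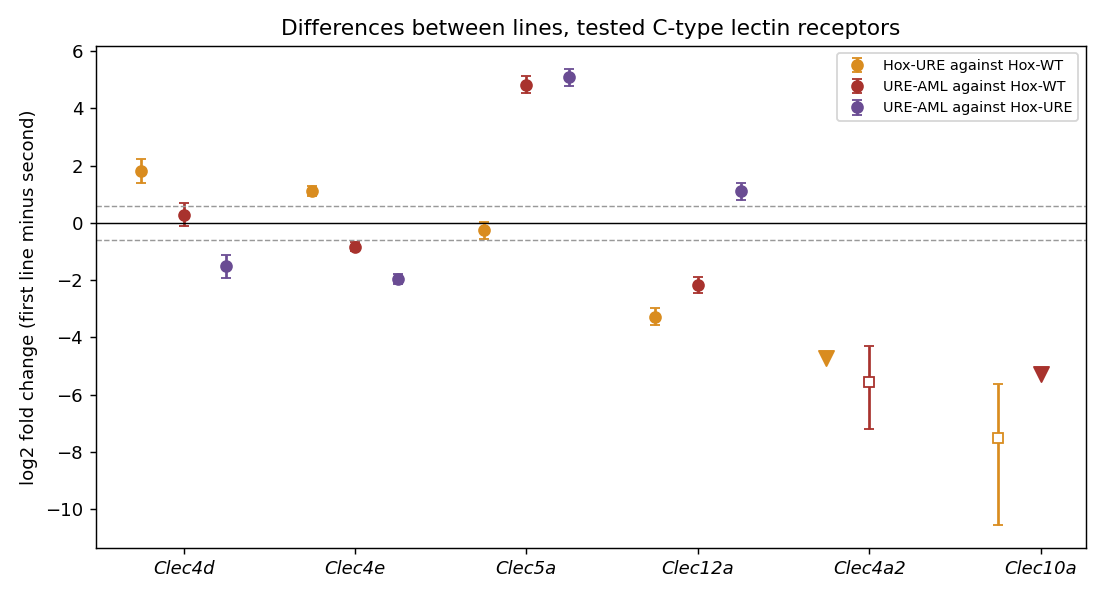
Log2 fold change of the 6 tested receptors in the 3 comparisons, with the SE of the edgeR fit (filled circles), the ratio of summed counts with its exact 95% interval where a line had 1 to 5 counts (open squares), or the bound from 3 counts per library where a line had none (triangles pointing to larger differences); dashed lines mark 1.5-fold. Clec5a reached 4.83 and 5.09 in URE-AML, Clec12a, Clec4a2 and Clec10a lay below 0 against Hox-WT, and Clec4d and Clec4e were above 0 only in Hox-URE against Hox-WT among the called differences.

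For a comparison between genes, levels were expressed as CPM per kb of merged exon. In Hox-WT the order was Clec4e with 25.2 CPM per kb, Clec4d with 12.2, Clec12a with 5.59, Clec10a with 1.74, Clec4a2 with 1.16 and Clec5a with 0.61. The libraries of Clec10a and Clec4a2 overlapped, and those of the other neighbours in this order did not. In Hox-URE the pair of Clec4e (54.9) and Clec4d (42.9) stood far above Clec12a (0.584) and Clec5a (0.503). The libraries of Clec4e and Clec4d overlapped there, as did those of Clec12a and Clec5a. In URE-AML, the means of Clec5a (17.4), Clec4d (14.9) and Clec4e (14.2) lay within 1 SD of each other, although within each of the 3 libraries Clec5a was the highest of these genes, and Clec12a followed with 1.24. Clec4e thus led by length-scaled level in Hox-WT, while in Hox-URE it was above Clec4d in libraries 2 and 3 and below it in library 1. With the longest transcript as the length, Clec4d (18.1) came before Clec5a (17.8) in URE-AML and the order in the other lines was the same.

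The adaptors of these receptors differed between the lines as well. Fcer1g, the partner of Clec4e, Clec4d and Clec4n, had 110, 144 and 151 CPM in Hox-WT cells, 262, 371 and 386 in Hox-URE, and 142, 110 and 116 in URE-AML cells. Hox-URE cells exceeded Hox-WT cells 2.52-fold (log2 1.33 ± 0.17, edgeR adjusted p = 0.000127) and 2.76-fold lower in the URE-AML line than in Hox-URE cells (-1.47 ± 0.17, adjusted p = 5.12e-05), with no call between URE-AML and Hox-WT (-0.13 ± 0.17, 95% interval -0.52 to 0.25). Its highest line was thus that of Clec4e and Clec4d. Fcer1g is also a chain of the IgE receptor of mast cells, and the summed mast cell and basophil markers, mostly Cpa3 and Prss34, were highest in Hox-URE too. Of the other chains of that receptor, Fcer1a had 0 counts in Hox-URE and Hox-WT, and Ms4a2, with 5.08 ± 3.05 and 3.62 ± 1.56 CPM, was not called between them. The part of such cells in the Fcer1g difference was not tested.

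Tyrobp, the DAP12 partner of Clec5a, had 20.3, 27.2 and 23.4 CPM in Hox-WT and 0.363, 0.143 and 1.03 in URE-AML, and was counted once over the 3 Hox-URE libraries, in library 1, without which that line was at 0. It fell by 5.50 ± 0.45 on the log2 scale for URE-AML relative to Hox-WT (edgeR adjusted p = 2.84e-06), and the ratio of Hox-WT to Hox-URE was 1690 (exact 95% interval 303 to 66700, adjusted p = 1.27e-06). Clec5a and Tyrobp were therefore highest in different lines, with Clec5a 28.5-fold higher and Tyrobp 45.2-fold lower in the URE-AML line than in Hox-WT cells, a fold that was 89.2 for Tyrobp without URE-AML library 3. Hcst, the DAP10 partner, had 2.32, 4.14 and 5.32 CPM in Hox-WT cells, 5.06, 7.54 and 8.07 in Hox-URE and 16.8, 16.6 and 20.0 in URE-AML cells. It was 4.52-fold higher in the URE-AML line than in Hox-WT cells (adjusted p = 9.41e-05) and 2.59-fold higher than in Hox-URE cells (adjusted p = 0.00165), so Hcst, unlike Tyrobp, was highest in the line where Clec5a was highest.

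Among 12 proximal kinases and exchange factors, 11 were tested, of which Hox-URE cells had 0 called higher and 8 lower relative to Hox-WT (8 with an unadjusted p below 0.05 in either direction), and URE-AML cells 1 higher and 7 lower, beside the 21.3% and 15.9%, and 23.0% and 20.2%, of all tested genes. Syk, the kinase shared by all activating receptors named here, had 191, 198 and 198 CPM in Hox-WT cells, 4.33, 5.76 and 3.83 in Hox-URE, and 3.27, 6.04 and 13.9 in URE-AML cells. It was 41.9-fold lower in Hox-URE cells (log2 -5.39 ± 0.44, edgeR adjusted p = 5.22e-06) and 25.3-fold lower in URE-AML (-4.66 ± 0.42, adjusted p = 6.39e-06) than in Hox-WT cells, and without URE-AML library 3 the latter fold was 42.3. Plcg2, the phospholipase below SYK, was also lower in both lines (-1.28 and -1.71). Prkcd, the kinase that acts on CARD9, was 2.11-fold higher in the URE-AML line than in Hox-WT cells (adjusted p = 0.000177). Relative to Hox-WT, the median log2 fold change of the tested kinases and exchange factors was -1.28 for Hox-URE and -1.81 for URE-AML. That of all tested genes was 0 and 0.002. Fgr passed the filter through Hox-WT alone, so in these medians and in the counts of calls it could only come out lower.

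Card9, the adaptor that links SYK to NF-κB, had 36.6, 39.2 and 44.0 CPM in Hox-WT cells, 0.692, 0.911 and 0.868 in Hox-URE, and 46.3, 47.7 and 59.1 in URE-AML cells. It was 48.5-fold lower in the Hox-URE line than in Hox-WT cells (edgeR adjusted p = 8.88e-09) and 62.0-fold higher in the URE-AML line than in Hox-URE cells (adjusted p = 3.98e-09). The change of 1.28-fold between URE-AML and Hox-WT was below the fold threshold. Thus Card9 was low in Hox-URE, where Clec4e and Clec4d were highest, and Syk was low in both lines with the UREd/d genotype. Of the 15 genes of the CARD9 module with NF-κB and NFAT, Hox-URE cells had 1 called higher and 6 lower and URE-AML cells 2 higher and 2 lower relative to Hox-WT. Relative to Hox-URE, URE-AML cells had 3 called higher and 0 lower, with 8 below an unadjusted p of 0.05 in either direction. Apart from the 6 lower in Hox-URE cells, these shares were near or below those of all tested genes given above. Rel, an NF-κB subunit, was lower in both lines against Hox-WT (-2.52 and -2.96). Nfatc2, a calcium-regulated factor, was at least 7.08-fold lower in the Hox-URE line than in Hox-WT cells and 3.80 higher on the log2 scale in URE-AML than in Hox-WT cells.

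Of the phosphatases recruited by inhibitory receptors, Ptpn6 (SHP-1) had 137 ± 8.66 CPM in Hox-WT cells, 145 ± 38.6 in Hox-URE and 215 ± 69.4 in URE-AML. It was 1.57-fold higher in the URE-AML line than in Hox-WT cells (edgeR adjusted p = 0.0368), a call lost when URE-AML library 1 (1.28-fold, adjusted p = 0.167) or any Hox-WT library (adjusted p = 0.0699 to 0.101) was left out, and was not called in Hox-URE (log2 0.09, 95% interval -0.44 to 0.61). Ptpn11 (SHP-2) was higher in URE-AML than in Hox-WT cells (log2 0.70) and Inpp5d (SHIP-1) higher in the Hox-URE line (0.69). Neither call was made by glmTreat (adjusted p = 0.136 and 0.157), and that of Inpp5d fell under the fold threshold with scaling by library size alone (log2 0.58). None of the 3 phosphatase genes was called lower against Hox-WT, whereas Clec12a was lower in both lines. Clec4a2 was lower too, but it passed the filter through Hox-WT alone and could only come out so.

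**Figure D3:**
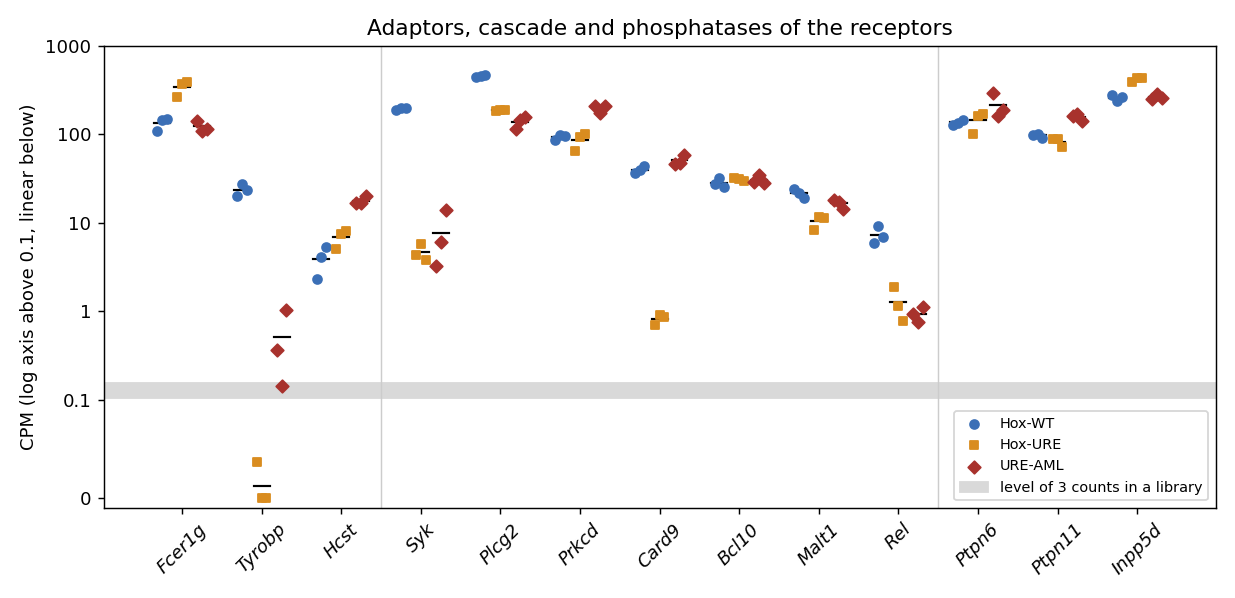
CPM in each library of the adaptors (left), the SYK and CARD9 cascade (middle) and the phosphatases of inhibitory receptors (right), with line means as bars, on an axis that is logarithmic above 0.1 and linear below. Syk stood near 195 CPM in Hox-WT and at 4.64 and 7.74 in Hox-URE and URE-AML, while Card9 was low in Hox-URE only.

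Of 37 other C-type lectin genes, 10 passed the filter. Against Hox-WT, Hox-URE cells had 5 called higher and 2 lower, and URE-AML cells 5 higher and 3 lower, where all tested genes had 21.3% and 15.9%, and 23.0% and 20.2%. These counts do not bear on direction for the genes that passed the filter through 1 line alone, Ly75, Cd302 and Colec12 through URE-AML and Mgl2 and Clec2i almost wholly through Hox-WT. Among the lower, Clec2i, with 2.69 ± 0.891 CPM in Hox-WT cells, had 0.208 ± 0.149 in the Hox-URE line and was at 0, at least 20.6-fold lower, in the leukemic one. Olr1, the LOX-1 scavenger receptor, which lies beyond Clec7a on chromosome 6, had 16.1 ± 4.14 CPM in Hox-WT cells, 48.8 ± 11.5 in Hox-URE and 204 ± 27.7 in URE-AML, with log2 fold changes of 1.60 ± 0.22 and 3.66 ± 0.23 against Hox-WT (edgeR adjusted p = 0.000161 and 4.46e-07). It shared its highest line with Clec5a. Ly75 (DEC-205, an endocytic receptor of dendritic cells) was at 17.8 ± 4.98 CPM in URE-AML and at 0 in Hox-WT, at least 165-fold higher. Cd302 was at 4.21 ± 0.933 CPM in URE-AML and at 0 in both other lines, at least 39.1-fold above Hox-WT. The scavenger receptor Colec12 was at 10.8 ± 3.30 CPM in URE-AML, 181 times the summed level of Hox-WT (exact 95% interval 77.2 to 559). Cd69 and Cd93 were, like Clec4d, highest in Hox-URE, with 100 ± 6.78 and 591 ± 28.6 CPM there against 36.5 ± 3.14 and 142 ± 8.27 in Hox-WT and 34.6 ± 0.428 and 185 ± 23.8 in URE-AML.

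Genes starting within 250 kb of the receptors were set beside them. Around Clec4a2, Clec4n, Clec4d and Clec4e, 12 of 17 other genes were at 0 in all libraries, and Necap1 was the only other gene tested, with 16.6, 21.2 and 24.6 mean CPM in Hox-WT cells, Hox-URE and URE-AML and no call in any comparison. Clec4b2, a further lectin of this cluster that did not pass the filter, was counted 4, 6 and 8 times in Hox-WT, in no Hox-URE library and once over the URE-AML libraries. Around Clec12a and Clec7a, 5 of 31 other genes were tested, and 4 of them (Olr1, Cd69, Clec2d and Gabarapl1) were higher in the Hox-URE line than in wild-type cells, beside 21.3% of all tested genes. In URE-AML cells, where Clec12a was lower too, Olr1 and Clec2d were higher than in wild-type cells and Cd69 was not called. Gabarapl1 was lower (log2 -0.76), a call that glmTreat did not make (adjusted p = 0.119). Around Clec5a, 3 of 12 other genes were tested. Ssbp1 was not called in any comparison, and Dennd11, with 16.1, 9.41 and 26.4 CPM in the 3 lines, was lower in Hox-URE cells and higher in URE-AML cells than in wild-type cells. Mgam had 1.30 CPM in Hox-WT cells, 3.76 in Hox-URE cells and 23.0 in URE-AML cells (log2 4.14 for URE-AML relative to Hox-WT, edgeR adjusted p = 4.55e-07), with its highest line that of Clec5a. Around Clec10a, 14 of 32 other genes were tested, and relative to Hox-WT the Hox-URE cells had 2 of them called higher and 3 lower, and the URE-AML cells 1 higher and 6 lower, beside 21.3% and 15.9%, and 23.0% and 20.2%, of all tested genes. The 3 lower in Hox-URE cells were Mgl2, Slc16a13 (17.0, 1.79 and 0.0158 CPM in the 3 lines) and Dvl2 (37.1, 21.9 and 19.6 CPM). All were also lower in URE-AML cells. For Hox-URE, glmTreat called neither Dvl2 (adjusted p = 0.0646) nor Acadvl, 1 of the 2 higher (adjusted p = 0.574). The Acadvl call also fell under the fold threshold with scaling by library size alone (log2 0.48).

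**Figure D4:**
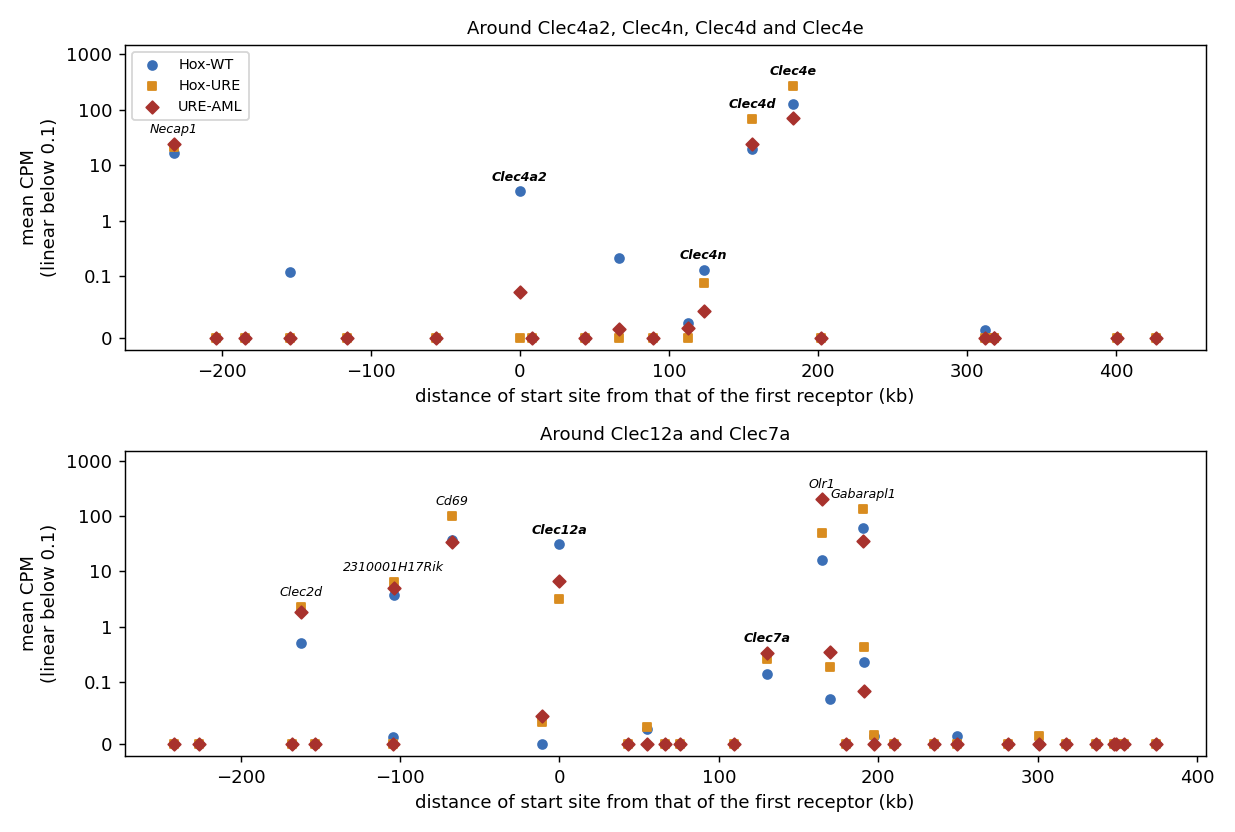
Mean CPM in each line of the annotated genes within 250 kb of 2 groups of receptors on chromosome 6, against the distance of each gene's start site from that of the first receptor, on an axis that is logarithmic above 0.1 and linear below; receptors are in bold. In the upper panel Necap1 was the only other gene above 1 CPM, and in the lower panel Cd69, Clec2d, Olr1 and Gabarapl1 were higher in the Hox-URE line than in wild-type cells where Clec12a was lower.

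Likeness of pattern was measured by Pearson's r of log2 CPM over the 9 libraries, which fall into 3 lines, so that r mostly reflects the order and distance of the line means. The most alike gene was Sh3kbp1 for Clec12a (r = 0.9927, with 44.9, 5.04 and 9.49 CPM in Hox-WT cells, Hox-URE and URE-AML), Slc7a5 for Clec4d (0.9839), AC160336.1 for Clec4e (0.9915), Tlr7 for Clec5a (0.9961), Mug2 for Clec10a (0.9991) and Mctp1 for Clec4a2 (0.9933). Tlr7, an endosomal RNA sensor, was at 0.0724, 0.0121 and 30.4 CPM in the 3 lines. An r over 0.95 was reached by 659 genes for Clec5a and by 312 for Clec10a and by 9 for Clec4d.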

How the data were processed

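Stranded poly-A libraries of 3 lines (3 each) were made with the NEBNext Ultra II Directional kit. The authors quantified the reads with Salmon against GRCm38 and deposited estimated counts per gene (expected counts). The Salmon version and the transcript release are not given in the sources used here. Salmon divides reads that match several transcripts, which bears on Clec10a and Clec4a2.

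Counts were rounded and tested in edgeR 4.0.16 (R 4.3.3) with TMM scaling, filterByExpr (minimum count 10) and a quasi-likelihood fit of all 9 libraries with line as the only factor. Benjamini-Hochberg adjustment ran over 13082 genes, and calls needed an adjusted p below 0.05 and a fold over 1.5. Samples were grouped by their labels. Folds against lines with no count used 3 counts per library, and with few counts the ratio of sums with an exact 95% interval, which replaced a planned floor at 3 counts. Intervals cover counting error only. Of 54347 gene IDs, 54094 were found in GENCODE M21. The scripts were tested on simulated data.

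The receptors and gene lists were chosen with earlier results of these data known. Named were all 9 receptors, up to 4 called genes per list, direction and comparison with the smallest p, Fcer1g, Tyrobp, Syk, Card9, Ptpn6 and Spi1, tested neighbours within 250 kb, and the 3 genes most alike in pattern, of which the first is given. Marker and cascade genes outside this rule were named to describe levels. In all, 19 alternatives were tried, among them DESeq2 1.42.0. Protein sequences were not used here, and some listed genes are not reported here by name.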

Additional observations from a re-analysis of the deposited data

How the results depend on the processing

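Of 333 fold changes of the receptors recomputed under 19 alternatives (other scaling, filters, tests, left-out libraries), 327 kept their direction and their side of the threshold. Requiring 10 counts in every library removed Clec10a and Clec4a2, leaving 1 receptor called lower for Hox-URE and 2 for URE-AML, each relative to Hox-WT. Testing against 1.5-fold (glmTreat) left 1 receptor higher in URE-AML against Hox-URE, since Clec12a gave an adjusted p of 0.0556, and Clec4e in URE-AML against Hox-WT gave 0.0866. Clec4a2 in URE-AML against Hox-URE passed with no filter (0.0395), with DESeq2 (0.0431) and without URE-AML library 1 (0.0157). Clec4d in URE-AML against Hox-WT, never called, turned to -0.088 without URE-AML library 1, the lowest of a range up to 0.55 when single libraries were left out. Library size alone moved the median of all genes by -0.08, 0.00 and 0.11 in the 3 comparisons.

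The correlation of same-numbered libraries ran from 0.015 to 0.266 over 9 pairs and of others from -0.212 to 0.069. All 9 libraries correlated best with their own number, a hint from the data, but not every pair passed 0.1, so no pairing was assumed. With the replicate block, the counts of called receptors were those without it in all 3 comparisons, for example 2 higher and 3 lower for Hox-URE relative to Hox-WT, and among the other genes named the call of Ptpn6 in URE-AML relative to Hox-WT was lost (adjusted p = 0.0589). Clec10a between URE-AML and Hox-URE had no value without Hox-URE library 3. Depth limits Clec7a, Clec4n and Mrc1.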
